A study of Homo sapiens with 22 samples.

Results

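Long introns, here introns of 50 kb or more, were followed through an RNA immunoprecipitation sequencing (RIP-seq) experiment on PSF (also called SFPQ) in prostate cancer cells. The rule took intron rows of the deposited count files with a length of 50000 bases or more, made them unique by position and strand, and kept those with 50 or more reads summed over the 12 libraries. That left 3611 introns of 1901 host gene symbols. They are part of 48935 introns of any length that reached 50 reads, and of 171740 introns with a read in any library. A further group of long introns stayed below the read minimum, since 6164 introns of 50 kb or more had at least 1 read. The 25 introns just inside the read limit had 50 reads and the 25 just outside had 49. The shortest long intron spanned 50009 bases, the longest intron left out by length spanned 49998 bases, and the median of the long introns was 83934 bases. Because the members were chosen by their summed reads, all counts and medians over them are descriptions. The same minimum of 50 reads was applied to the 45324 shorter introns set beside them.

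The libraries came from 3 human prostate cancer lines. LNCaP and 22Rv1 were grown in 10% fetal bovine serum, and the line labelled LTAD, a name the labels do not spell out, in 10% charcoal/dextran-treated serum. All cells then spent 3 days in phenol red-free medium with 2.5% charcoal/dextran-treated serum and received vehicle (ethanol) or 10 nM of the androgen dihydrotestosterone (DHT) for 24 h. Each line and treatment gave 1 input library and 1 PSF-RIP library, hence 6 pairs. No immunoglobulin control was analysed here, and no label says that libraries came from separate cultures, so the spread behind each p-value is that among these libraries and lines and may be technical. LNCaP cells also gave 4 lists of peaks from crosslinking immunoprecipitation (PSF-CLIP, UV at 150 mJ/cm2), 2 lists per treatment.

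PSF is an abundant nuclear protein with RNA recognition motifs. It acts in splicing, in transcription and, together with NONO, in the paraspeckles built on the long noncoding RNA NEAT1. Long introns take long to transcribe, so RNA polymerase and unspliced RNA occupy them for an extended time, and they are found mainly in developmental, signalling and cell adhesion genes. Reads that fall in an intron report unspliced or partly processed RNA of the host gene, RNA of genes and repeats nested inside it, or both.

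The windows below are examples of sequence from the middle of PSF-CLIP peaks in these introns. Each is 200 bases of genomic sequence centred on a peak. The peaks were the highest-scoring ones of long introns that overlapped peaks in at least 3 of the 4 lists, 1 per host gene. Each window is written 5′ to 3′ on the strand of the host intron (hg19). Capitals mark GAGA, the 4-letter word whose smallest margin over tiled windows among the 4 lists was the largest (24.5 points). Other words had wider margins in single lists, such as AGGG in the first vehicle list (79.3% of windows, against 45.9% of tiled ones). GAGA was picked after its values were seen. The windows lie in introns of RPH3AL, a regulator of exocytosis (chr17:165720-165919, minus strand), SNTG2, a syntrophin (chr2:1009235-1009434, plus strand), and HDAC4, a histone deacetylase (chr2:240203519-240203718, minus strand). The others lie in MIR99AHG, the host gene of miR-99a (chr21:17767679-17767878, plus strand), SCHLAP1, a prostate cancer long noncoding RNA (chr2:181709415-181709614, plus strand), and STRBP, a double-stranded RNA-binding protein (chr9:126028944-126029143, minus strand). Every peak was wider than its window. The MIR99AHG peak spanned chr21:17763870-17771686 and the STRBP peak chr9:126027973-126030113. The median peak width in the first vehicle list was 495 bases. PSF need not lie inside a window, and the CLIP inputs were not analysed here. The peaks of RPH3AL, SNTG2, HDAC4 and MIR99AHG had the same score of 3100.
RPH3AL: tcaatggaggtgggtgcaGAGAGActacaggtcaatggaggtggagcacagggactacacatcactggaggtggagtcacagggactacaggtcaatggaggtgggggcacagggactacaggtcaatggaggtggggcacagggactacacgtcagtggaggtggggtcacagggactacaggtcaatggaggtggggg
SNTG2: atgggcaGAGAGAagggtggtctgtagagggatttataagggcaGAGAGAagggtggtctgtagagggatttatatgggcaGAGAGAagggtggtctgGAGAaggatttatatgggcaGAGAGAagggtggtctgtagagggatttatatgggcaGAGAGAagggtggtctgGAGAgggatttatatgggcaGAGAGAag
HDAC4: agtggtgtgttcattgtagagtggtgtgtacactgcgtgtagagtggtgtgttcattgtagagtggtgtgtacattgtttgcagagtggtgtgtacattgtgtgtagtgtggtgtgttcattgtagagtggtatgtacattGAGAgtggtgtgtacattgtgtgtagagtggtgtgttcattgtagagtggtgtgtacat
MIR99AHG: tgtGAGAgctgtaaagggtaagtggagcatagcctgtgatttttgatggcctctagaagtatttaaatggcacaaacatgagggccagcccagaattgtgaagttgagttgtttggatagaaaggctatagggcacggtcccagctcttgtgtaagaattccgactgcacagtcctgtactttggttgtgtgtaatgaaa
SCHLAP1: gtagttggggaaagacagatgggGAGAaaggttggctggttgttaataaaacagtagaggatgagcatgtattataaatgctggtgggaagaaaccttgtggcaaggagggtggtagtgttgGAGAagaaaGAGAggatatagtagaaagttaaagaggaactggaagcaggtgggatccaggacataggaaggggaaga
STRBP: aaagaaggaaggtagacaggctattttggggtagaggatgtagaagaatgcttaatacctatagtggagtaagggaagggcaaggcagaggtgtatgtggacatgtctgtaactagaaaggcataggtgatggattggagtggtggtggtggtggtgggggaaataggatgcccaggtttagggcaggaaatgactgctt

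All 6 windows held more purines (A and G) than the median of 49.0% in windows tiled along the long introns. Purines made up 54.5% of the HDAC4 window and 56.0% of the MIR99AHG window, below the median of peak windows in each list (57.5% or more). They made up 68.5% of the RPH3AL and STRBP windows, 73.0% of the SNTG2 window and 74.0% of the SCHLAP1 window. GAGA occurred 14 times in SNTG2, 3 times in SCHLAP1, 2 times in RPH3AL, 1 time each in HDAC4 and MIR99AHG, and 0 times in STRBP, overlapping matches included. Its reverse complement TCTC occurred in none of the 6 windows. The SNTG2 window was a tandem repeat, with 96.8% of bases identical at a shift of 74 bases, and shifts of 61 bases in RPH3AL and 42 bases in HDAC4 gave 74.1% and 68.4%.

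Long introns differed from shorter introns in make-up. Of the long introns, 3339 matched an intron of the GENCODE annotation. Of these, 1669 (50.0%) were the first intron of a transcript, against 37.6% of matched shorter introns, and 271 (8.12%) belonged to long noncoding RNA genes, against 3.54%. Their median GC content was 39.7%, against 43.4%, and 3562 (98.6%) began with GT and ended with AG. An annotated exon of another transcript or gene lay inside 3166 of them (87.7%, against 71.8% of shorter introns), a coding exon inside 1864 and an entire coding gene inside 56, so some of the reads counted in a long intron come from exons. Long introns were thinly covered, with a median of 3.13 reads per kb over all libraries, against 30.1 for shorter introns. Their median read sum was 282, and 2171 had a read in each of the 12 libraries. They also overlapped one another: 1583 shared bases with another long intron, and the 3611 formed 2590 clusters.

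Mapped reads ranged from 1073228 to 3014049 in the inputs and from 4641602 to 10439461 in the PSF-RIP libraries, so inputs limited the precision. A median long intron had 2 reads in the LTAD vehicle input and 105 in the 22Rv1 vehicle PSF-RIP library. Levels are given as RPM, the reads of an intron per 1000000 exonic reads, with the library's exonic total scaled by TMM, a method that sets most genes equal between libraries. As a check of the cell type, 8 luminal prostate genes summed to between 2780.3 and 7502.5 RPM in the inputs, while the basal set summed to 0 to 1.76 RPM with KRT5 and TP63 at 0. Stromal markers summed to 23.1 to 166 RPM with COL1A2 at 0, and leukocyte markers to 3.96 to 45.8 RPM. Intergenic reads came to 143978.6 to 277866.1 RPM in the inputs and 65753.4 to 95862.0 RPM in PSF-RIP and their part in the results was not tested. In bulk libraries, fewer cells with an RNA and less of it per cell cannot be told apart.

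Long introns took similar shares of intronic reads in all inputs and different shares in PSF-RIP. Introns of 50 kb or more took 13.2% of intronic reads in LNCaP vehicle input, 14.3% in LNCaP DHT, 15.4% in 22Rv1 vehicle, 14.9% in 22Rv1 DHT, 14.6% in LTAD vehicle and 14.8% in LTAD DHT. The input mean was 14.5% ± 0.76 (SD, n = 6). In PSF-RIP the share was 7.93% in LNCaP vehicle, 11.1% in LNCaP DHT, 21% in 22Rv1 vehicle, 18% in 22Rv1 DHT, 13.4% in LTAD vehicle and 13.8% in LTAD DHT, with a mean of 14.2% ± 4.68 (SD, n = 6). Both LNCaP libraries lay below every input, both 22Rv1 libraries lay above every input, and the LTAD libraries lay among them. The LNCaP vehicle PSF-RIP library was lowest and the 22Rv1 vehicle PSF-RIP library highest. Values of LNCaP DHT, or counts without LNCaP vehicle, are therefore given beside those of LNCaP vehicle.

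The first comparison asked which long introns were recovered with PSF relative to input over the 6 pairs. By edgeR's quasi-likelihood test with Benjamini-Hochberg adjustment over all 48935 introns, 314 long introns (8.70%) were higher in PSF-RIP and 140 (3.88%) were lower. Over all introns tested, 9.79% were higher and 5.77% lower, so long introns were called no more often than introns in general. DESeq2 turned the split of the long introns, with 117 higher and 142 lower. The median log2 difference of the long introns was 0.33 (quartiles -0.04 and 0.69), against 0.18 for shorter introns. With 1 intron per host gene, 149 of 1901 were higher and 100 lower.

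That pooled median hid opposite values in different lines. The median log2 ratio of PSF-RIP to input over the long introns was 0.89 in 22Rv1 vehicle, 0.48 in 22Rv1 DHT, 0.23 in LTAD vehicle, 0.22 in LTAD DHT, -0.15 in LNCaP DHT and -0.63 in LNCaP vehicle. Shorter introns gave medians between 0.10 and 0.26 in all 6 pairs, and the exons of the host genes between 0.00 and 0.12. Above 0 were 88.3% of long introns in 22Rv1 vehicle, 74.4% in 22Rv1 DHT, 23.1% in LNCaP vehicle and 35.3% in LNCaP DHT. The 445 long introns with no annotated exon inside lay at the same ends, with a median of 1.00 in 22Rv1 vehicle and -0.67 in LNCaP vehicle, beside 0.59 and -0.09 in the DHT pairs. Leaving out both 22Rv1 pairs turned the pooled median to -0.14, with 59 long introns higher and 255 lower, and leaving out the 22Rv1 vehicle pair alone gave 109 higher and 188 lower. Leaving out both LNCaP pairs gave 897 higher and 110 lower with a median of 0.63, and leaving out the LNCaP vehicle pair 668 and 122. Without LTAD the counts were 106 and 90. To each count a prior was added, 2 reads on average and scaled to library size. It pulls these ratios toward 0 where levels are low.

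**Figure D1:**
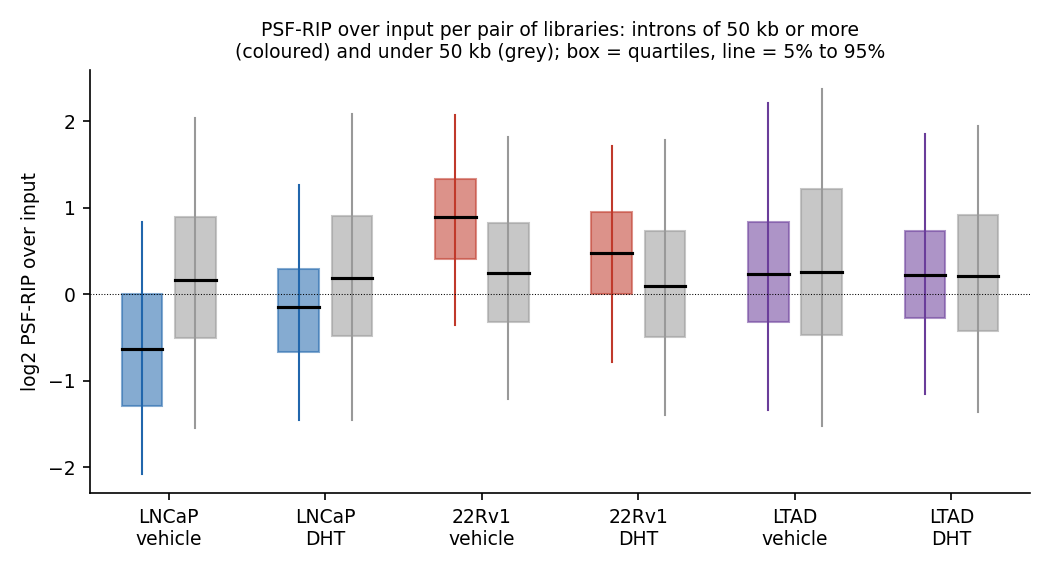
Log2 ratio of PSF-RIP to input in each of the 6 line and treatment pairs for long introns (coloured) and introns under 50 kb (grey); boxes span the quartiles with the median as a line, and whiskers the 5th to 95th percentiles. The long-intron medians run from -0.63 in LNCaP vehicle to 0.89 in 22Rv1 vehicle, while the grey medians stay between 0.10 and 0.26.

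The ratio in 22Rv1 rose relative to that in LNCaP with intron length above 5 kb, up to the longest class with vehicle but not beyond 100 kb with DHT. In LNCaP vehicle the median log2 ratio of PSF-RIP to input was 0.56 for introns under 1 kb, 0.12 for 5 to 10 kb, -0.58 for 30 to 50 kb, -0.61 for 50 to 100 kb, -0.65 for 100 to 200 kb and -0.69 for 200 kb or more. In 22Rv1 vehicle the same classes gave 0.30, 0.14, 0.65, 0.85, 0.97 and 0.97. LTAD vehicle gave 0.35, 0.20, 0.06, 0.20, 0.28 and 0.28. With vehicle, LNCaP thus ran downward with length and 22Rv1 upward from the class of 5 to 10 kb on, while LTAD showed neither course. In LNCaP DHT the classes gave 0.47, 0.09, -0.24, -0.18, -0.08 and -0.09, and in 22Rv1 DHT 0.30, 0.02, 0.29, 0.46, 0.51 and 0.46, so with DHT the distance between the lines was about level over the 3 classes of long introns. Among introns with no annotated exon inside, LNCaP vehicle did not fall further over these classes, at -0.67 (338 introns), -0.51 (87) and 0.00 (20). The 50 kb limit did not mark a step, because introns of 30 to 50 kb already had values close to those of 50 to 100 kb.

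**Figure D2:**
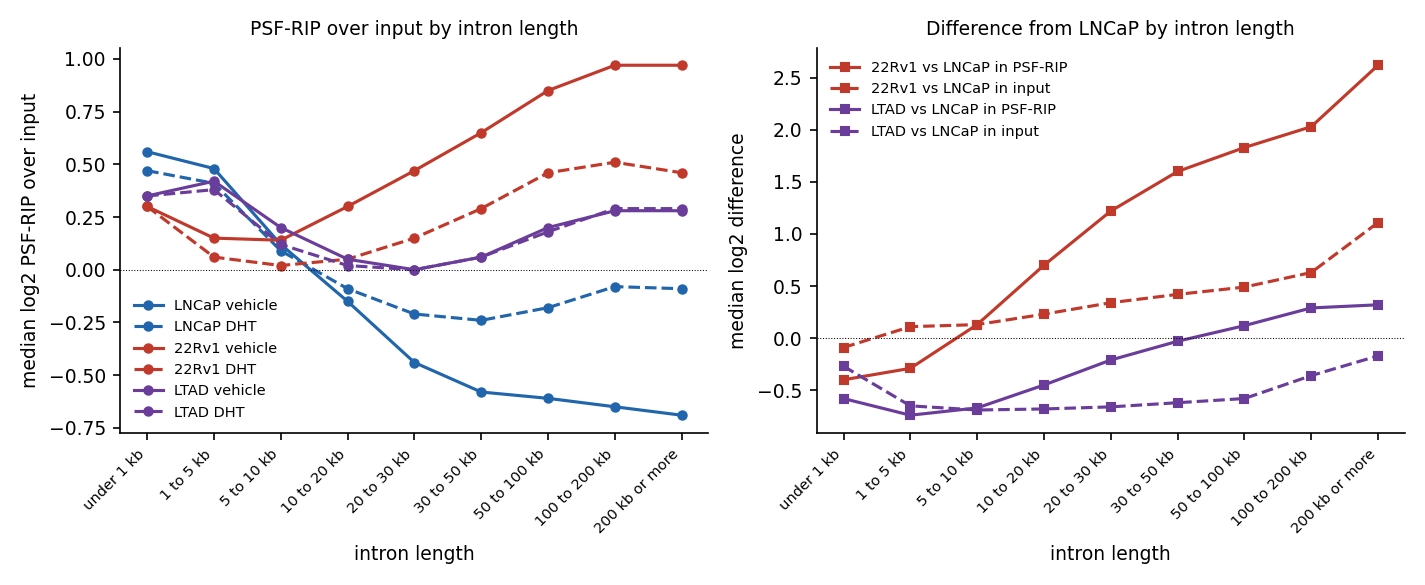
Left, median log2 ratio of PSF-RIP to input by intron length class for the 6 pairs; right, median fitted log2 difference of 22Rv1 and of LTAD from LNCaP by length class, in PSF-RIP (solid) and input (dashed). In LNCaP vehicle the ratio falls from 0.56 under 1 kb to -0.69 at 200 kb or more, while in LNCaP DHT it is -0.09 in the last class, and in 22Rv1 vehicle it reaches 0.97.

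The introns with the largest rise in PSF-RIP, among those with the same sign in all 6 pairs, included those of PPP2R2C, RARB and EPHB2. In PPP2R2C, a regulatory subunit of protein phosphatase 2A (chr4:6382822-6473886, the first intron), the 6 inputs held 0 to 4.51 RPM and the PSF-RIP libraries 1.14 to 14.2 RPM, highest in 22Rv1. Its log2 difference was 1.76 ± 0.39 (SE, adjusted p = 0.00173, higher in 6 of 6 pairs). RARB, a retinoic acid receptor (chr3:25542815-25611248, the first intron), had a read in the 22Rv1 inputs only among inputs, at 1.32 and 3.76 RPM, and 0.457 to 11.2 RPM in PSF-RIP (1.89 ± 0.54, adjusted p = 0.0153). EPHB2, an ephrin receptor, changed by 1.94 ± 0.60 (adjusted p = 0.0242) on 106 reads in all. LINC01572, a long noncoding RNA, changed by 1.5 ± 0.33 (adjusted p = 0.0018), and DAB2IP, a RAS GTPase-activating protein, by 1.51 ± 0.37 (adjusted p = 0.00459). All of these are thinly covered introns whose inputs held few reads. They reached the read minimum mainly through PSF-RIP, the group where they were higher, so their p-values are descriptions and not independent support. None of the 5 was called without 22Rv1 (adjusted p = 0.0553 for PPP2R2C, 0.0986 for RARB, 0.351 for EPHB2, 0.324 for LINC01572 and 0.0617 for DAB2IP). Leaving out the 22Rv1 DHT pair alone ended the calls of RARB (0.0669) and EPHB2 (0.097), leaving out the 22Rv1 vehicle pair that of EPHB2 (0.107), and leaving out LTAD those of RARB (0.0599) and DAB2IP (0.0535). Among the 10 most heavily read introns, SCHLAP1 (chr2:181589418-181780999) was higher in PSF-RIP. Its inputs were 325, 332, 112, 184, 109 and 100 RPM in the order LNCaP vehicle, LNCaP DHT, 22Rv1 vehicle, 22Rv1 DHT, LTAD vehicle and LTAD DHT, and its PSF-RIP levels in the same order were 319, 460, 284, 358, 197 and 182 RPM. The groups overlapped between lines, but 5 of the 6 pairs were higher in PSF-RIP, with a log2 difference of 0.73 ± 0.13 (adjusted p = 0.000201).

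The introns depleted from PSF-RIP had larger changes. In PDE3A, a cyclic nucleotide phosphodiesterase (chr12:20523179-20709593, the first intron), the inputs in the same order were 1969.5, 2224.2, 2885.5, 2324.5, 2590.9 and 1876.8 RPM and the PSF-RIP levels were 364, 433, 440, 647, 391 and 357 RPM. Every input lay above every PSF-RIP library, and the log2 difference was -2.41 ± 0.11 (adjusted p = 1.01e-18). The exons of the host gene differed from this intron, though the contrast was not tested: the mean log2 difference of 22Rv1 from LNCaP in the inputs was 1.98 over PDE3A exons, while the intron differed by 0.30 ± 0.16 (adjusted p = 0.234). ANKRD30BL (chr2:132914720-133015101, the first intron) held 2009 to 4020 reads in each input, at 2023.9 to 2657.5 RPM, and 330 to 684 RPM in PSF-RIP (-2.45 ± 0.11, adjusted p = 1.99e-18). This intron contains an annotated 5.8S ribosomal RNA pseudogene and the microRNA gene MIR663B. PDE3A and ANKRD30BL were the third and the fourth most heavily covered of all long introns.

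Some of the most depleted introns contain copies of 7SK, the small nuclear RNA that holds the elongation factor P-TEFb in an inactive complex. In ARHGAP42, a GTPase-activating protein (chr11:100665898-100730284), inputs held 26.4 to 96.9 RPM and PSF-RIP libraries 0.492 to 3.36 RPM (-5.29 ± 0.25, adjusted p = 2.99e-18). In CDH8, a cadherin (chr16:61761120-61823249), inputs held 5.95 to 25.1 RPM and PSF-RIP 0.164 to 0.915 RPM (-4.80 ± 0.38, adjusted p = 1.02e-11). SLC39A11, a zinc transporter, changed by -2.67 ± 0.19 (adjusted p = 4.9e-13). The groups did not overlap in any of these 3, and each holds an annotated 7SK copy on its own strand. Of the 20 long introns with such a copy (15 clusters), 11 were lower in PSF-RIP and 0 higher, with a median log2 difference of -0.87. The 11 include overlapping introns of PID1 and overlapping introns of NMNAT3, so they are not 11 separate loci. Of the 12 with a 7SK copy on the opposite strand, 1 was lower and the median was 0.31. The 3311 long introns with none of 6 classes of small RNA or mitochondrial copies on their strand had 290 higher, 110 lower and a median of 0.34. These classes were looked up after the lowest introns had been seen. A copy inside an intron need not be where its reads lie: PID1 (-2.59 ± 0.14, adjusted p = 1.78e-16) holds a 7SK copy, but shorter PID1 introns without that copy held 5305 of its 5308 reads. The lowest value of all, -6.03 ± 0.34 (adjusted p = 4.85e-16) in LOC101928911 (chr6:88494981-88619499), came in an intron with a 7SL copy and no 7SK copy on its strand, and no 7SK copy was annotated in AMMECR1 (-2.39 ± 0.22, adjusted p = 2.56e-10) or DKK2, a WNT antagonist (-2.23 ± 0.28, adjusted p = 4.06e-07). The introns of LOC101928911, with 160 reads in all, and CDH8, with 132, reached the read minimum mainly through the inputs. That is the group where they were higher, so their p-values are descriptions and not independent support.

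The counts of the 9 gene lists between PSF-RIP and input stand beside 8.70% higher and 3.88% lower over all long introns. Over all introns tested the shares were 9.79% and 5.77%. Nothing particular to a list is read from its counts. Of 76 synaptic and neuronal adhesion genes, 42 had a long intron (the most heavily read one is taken for each gene), with 3 higher (PTPRN2, CNTNAP2 and GRM8), 2 lower (ASTN2 and SORCS2) and a median of 0.57. Of 42 genes at common fragile sites, regions that break under replication stress, 32 had one and 3 were higher (WWOX, CNTNAP2 and VPS13B), 0 lower, with a median of 0.51. Of 65 kinase, phosphatase and phosphodiesterase genes, 39 had one, with 2 higher, 1 lower and a median of 0.36. Chromatin and transcription factor genes had 4 higher and 1 lower of 50, and splicing and RNA-binding genes 0 higher and 1 lower (MBNL1) of 15. Among 8 long noncoding RNAs, SCHLAP1 and PVT1 were higher and JPX lower. Leaving out 1 line ended the calls of WWOX and VPS13B (adjusted p = 0.322 and 0.473 without 22Rv1), of PVT1 (0.0636 without 22Rv1 and 0.0708 without LTAD) and of MBNL1 (0.22 without LTAD).

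The comparison of lines gave the widest differences. Comparing 22Rv1 with LNCaP in PSF-RIP, 2570 long introns (71.2%) were higher in 22Rv1 and 226 (6.26%) lower, against 24.8% higher and 16.3% lower over all introns tested. With no read minimum, 2721 of 6164 long introns (44.1%) were higher and 219 (3.55%) lower, so the share depends on the minimum. The median log2 difference was 1.93 (quartiles 0.85 and 3.16), against 0.07 for shorter introns. In the inputs 741 long introns (20.5%) were higher in 22Rv1 and 252 (6.98%) lower, against 7.11% and 5.81% over all introns, with a median of 0.56 against 0.14. The inputs were shallower, so fewer calls there do not show a smaller difference by themselves. The share higher in 22Rv1 in PSF-RIP went from 8.26% under 1 kb to 35.1% at 10 to 20 kb, 69.8% at 50 to 100 kb and 73.8% at 200 kb or more, where the median was 2.62. Per treatment, the median over long introns in PSF-RIP was 2.30 with vehicle and 1.12 with DHT, while exons of the host genes gave 0.15 and 0.04. Without the LNCaP vehicle libraries, 1765 were higher and 221 lower, and without the 22Rv1 vehicle libraries 1812 and 198. In the inputs, leaving out any of the 4 libraries of these lines lowered the calls, to 649 without 22Rv1 DHT, 533 without 22Rv1 vehicle, 702 without LNCaP DHT and 562 without LNCaP vehicle.

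The introns of EGFR and PDE4D were among those that differed most between lines. In EGFR, the epidermal growth factor receptor (chr7:55087059-55209978, the first intron), inputs in the order given above were 24.2, 33.5, 283, 267, 11.8 and 11.1 RPM and PSF-RIP levels 17.4, 41.3, 741, 464, 20.3 and 25.9 RPM. Both 22Rv1 libraries of either assay lay above all others. The log2 difference of 22Rv1 from LNCaP was 4.43 ± 0.27 in PSF-RIP (adjusted p = 1.08e-19) and 3.26 ± 0.28 in input (adjusted p = 1.43e-13), beside mean log2 differences of 3.08 and 2.41 over its exons. In PDE4D, a cyclic AMP phosphodiesterase (chr5:58511795-59284314), the 22Rv1 PSF-RIP levels were 915 and 398 RPM, against 12.6 and 25.7 RPM in LNCaP (5.02 ± 0.29, adjusted p = 9.23e-21). Coding exons are annotated inside the EGFR and PDE4D introns, and their part in these levels was not tested.

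Several introns were read almost only in 22Rv1. SRRM4, a splicing regulator of neural exons (chr12:119419819-119540040, the first intron), had 3843 and 1235 reads in the 22Rv1 PSF-RIP libraries and 0 and 2 reads in LNCaP. ERBB4, a neuregulin receptor, had 404 and 110 reads against 0 and 0. SGCZ, a sarcoglycan, had 1512 and 286 against 0 and 1, and KHDRBS2, a STAR-family RNA-binding protein, had 481 and 91 against 0 and 0. FAM110B, CHRM3, a muscarinic receptor, and EPHA7, an ephrin receptor, had 0 or 1 read in either LNCaP PSF-RIP library. These introns reached the read minimum through 22Rv1, so no test of them is given, and with so few reads in LNCaP no fold. The counts of the gene lists stand beside the 71.2% of all long introns that were higher in 22Rv1. Over the synaptic and neuronal adhesion list, 30 of 42 were higher in 22Rv1 in PSF-RIP and 6 lower, with a median of 3.54, and in input 16 and 6 with a median of 1.60. Of fragile-site genes 24 of 32 were higher and 3 lower, of signalling genes 33 of 39 and 4, of chromatin genes 40 of 50 and 2, and of splicing genes 14 of 15 and 0. Of 20 lineage and coregulator genes, 14 were higher and 1 lower. Nothing particular to a list is read from these counts.

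A smaller set was lower in 22Rv1. In MIR99AHG (chr21:17603436-17859809) inputs were 792, 771, 23.1, 17.3, 329 and 311 RPM and PSF-RIP levels 353, 539, 55.1, 20.8, 346 and 299 RPM. The 22Rv1 libraries lay below all others, by -3.62 ± 0.25 in PSF-RIP (adjusted p = 1.22e-17) and -5.27 ± 0.28 in input (adjusted p = 4.46e-21). PRKD1, protein kinase D1 (chr14:30194881-30396454, the first intron), fell from 291 and 371 RPM in LNCaP PSF-RIP to 30.4 and 14.1 RPM in 22Rv1 (-4.00 ± 0.25, adjusted p = 2.31e-19). LINC01194 had 0 reads in all 4 libraries of 22Rv1, at 12.4 and 13.1 RPM in LNCaP PSF-RIP. ELFN2, a leucine-rich repeat membrane protein, went from 69.5 and 65.1 RPM to 1.22 and 0.448 RPM (-6.21 ± 0.35, adjusted p = 1.58e-20). MIR646HG and PDE10A, a phosphodiesterase, were also among the lowest, at 0 to 0.271 RPM in 22Rv1 PSF-RIP.

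**Figure D3:**
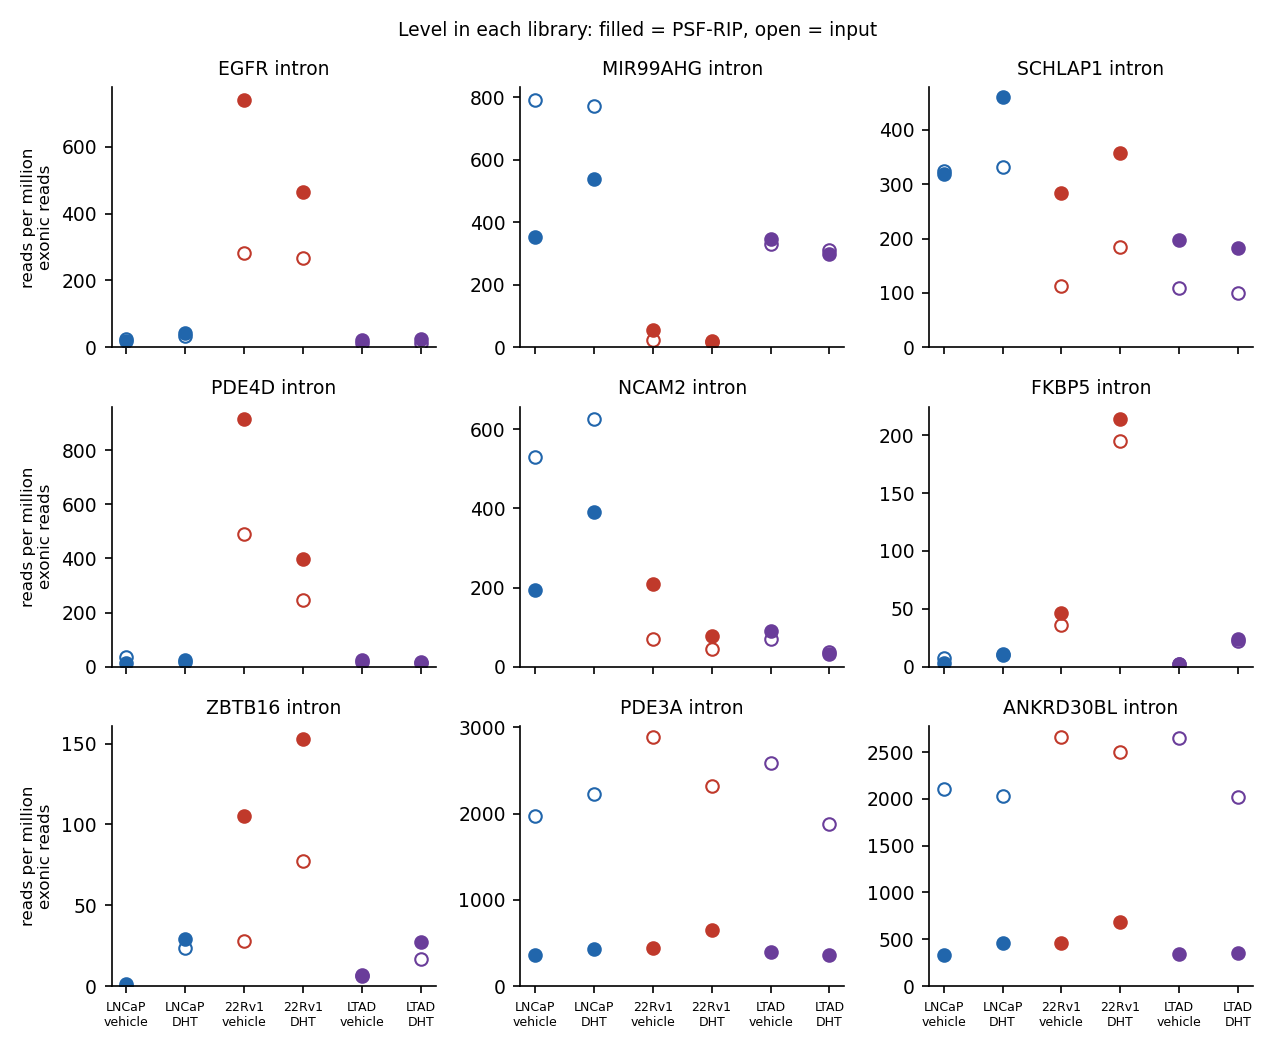
RPM in each library for 9 long introns, with filled points for PSF-RIP and open points for input, by line and treatment. The EGFR intron is highest and the MIR99AHG intron lowest in 22Rv1, and PDE3A and ANKRD30BL lie between 330 and 684 RPM in PSF-RIP and at 1876.8 RPM or more in every input.

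A comparison added after these values had been seen asked whether the ratio of PSF-RIP to input itself differed between lines. For 22Rv1 against LNCaP, 117 long introns had a higher ratio in 22Rv1 and 1 a lower one, against 0.327% higher and 0.0715% lower over all introns tested, and the median over long introns was 1.26, against 0.01 for shorter introns. At an unadjusted p under 0.05 there were 1236. In PPP3CA, the catalytic subunit of calcineurin (chr4:102117274-102267895, the first intron), the log2 ratio of PSF-RIP to input was -1.71 in LNCaP vehicle, -0.66 in LNCaP DHT, 1.00 in 22Rv1 vehicle and 0.75 in 22Rv1 DHT. Its difference was 2.04 ± 0.31 (adjusted p = 0.00017). ANK3, an ankyrin of neuronal and epithelial membranes, gave 2.18 ± 0.35 (adjusted p = 0.000527), and EPHA3, an ephrin receptor, 3.15 ± 0.52 (adjusted p = 0.000718). Among coregulators, MED13L, a Mediator kinase module subunit, gave 2.91 ± 0.51 (adjusted p = 0.00168) and TBL1XR1, a corepressor subunit, 2.13 ± 0.42 (adjusted p = 0.00618). NCAM2, a neural adhesion molecule, gave 2.09 ± 0.42 (adjusted p = 0.00754).

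These calls depended on the libraries and the tool. Leaving out the vehicle libraries lowered the 118 calls to 4 (LNCaP) or 7 (22Rv1), and leaving out the DHT libraries raised them to 353 (LNCaP) or 242 (22Rv1). DESeq2 called 4 and gave no adjusted p for 2307, and edgeR's default expression filter left 0 of 1930, with medians of 1.23 and 1.21. For LTAD against LNCaP no long intron was called by edgeR or DESeq2 (483 and 206 at an unadjusted p under 0.05), against 0.0347% of all introns by edgeR, but 81 were without the LNCaP DHT libraries. For DHT against vehicle none was called by either tool (78 and 18 at an unadjusted p under 0.05), against 0.0266%.

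LTAD differed less from LNCaP. In PSF-RIP 263 long introns (7.28%) were higher in LTAD and 139 (3.85%) lower, against 1.26% and 15.4% over all introns tested, with a median log2 difference of 0.17 against -0.58 for shorter introns. In the inputs 23 (0.637%) were higher and 107 (2.96%) lower, against 0.168% and 2.2%, with a median of -0.49 against -0.62. Scaling by introns in place of exons moved the median over all introns in PSF-RIP from -0.53 to 0.02 and gave 632 higher and 39 lower, and 35 and 49 in the inputs, so the balance moved with the scaling without turning. DESeq2, which also scaled by introns, gave 191 higher and 22 lower in PSF-RIP. In the inputs it turned the split, with 38 higher and 24 lower. Its median over all introns in the inputs was -0.1, against -0.61 in edgeR with exon scaling. The LNCaP vehicle libraries decided the direction in PSF-RIP: without them 79 were higher and 187 lower in PSF-RIP, and without the LNCaP DHT libraries 569 and 76. Without either LTAD treatment the PSF-RIP counts were 85 and 41 (DHT left out) or 102 and 51 (vehicle left out), and the input counts 25 or 46 in all. In GHR, the growth hormone receptor (chr5:42424058-42565965, the first intron), PSF-RIP levels were 135 RPM in both LTAD libraries, 1.14 and 2.74 RPM in LNCaP and 20.8 and 19.3 RPM in 22Rv1 (6.14 ± 0.35 for LTAD against LNCaP, adjusted p = 3.44e-20). BNC2, a zinc finger protein, was at 21.2 and 16.4 RPM in LTAD PSF-RIP and at 0.229 and 0.274 RPM in LNCaP. In the other direction, NETO1, a glutamate receptor auxiliary protein (chr18:70461640-70526060), was at 14.9 and 10.5 RPM against 242 and 302 RPM (-4.49 ± 0.29, adjusted p = 1.33e-17). The intron of BCHE, butyrylcholinesterase, had 1 and 3 reads in LTAD PSF-RIP and 165 and 63 in LNCaP, and the GALNT7 intron 0 and 1 against 20 and 23.

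Androgen changed few long introns, among them introns of known target genes such as FKBP5, MBOAT2 and ZBTB16. In PSF-RIP, 53 long introns (1.47%) were higher after DHT and 38 (1.05%) lower over the 3 lines, against 0.525% and 0.468% of all introns tested. In the inputs 10 were higher and 2 lower, against 0.125% and 0.0307%. Scaling by introns moved the median over all introns in PSF-RIP from -0.27 to -0.05 and gave 73 higher and 13 lower. The median over long introns in PSF-RIP was 0.40 in LNCaP, -0.55 in 22Rv1 and -0.12 in LTAD, and in the inputs -0.02, -0.13 and 0.00. The long-intron medians of LNCaP and 22Rv1 PSF-RIP thus had opposite signs, while shorter introns gave -0.20 and -0.25. Each of these medians rests on 1 DHT and 1 vehicle library. The 2 vehicle libraries had the lowest and the highest share of intronic reads in long introns (7.93% and 21%). The test of the difference between the lines was not run. Without LNCaP, 38 were higher and 166 lower, without 22Rv1 88 and 15, and without LTAD 11 and 3; the input counts were 17, 14 and 1 in all.

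The intron of FKBP5, a cochaperone of steroid receptors (chr6:35610621-35688104), rose in PSF-RIP from 3.20 to 11.2 RPM in LNCaP, from 46.0 to 214 RPM in 22Rv1 and from 2.46 to 23.7 RPM in LTAD. In the inputs it went from 7.18 to 9.70, from 36.4 to 195 and from 2.63 to 22.1 RPM. Its log2 difference was 2.41 ± 0.25 in PSF-RIP (adjusted p = 1.73e-09) and 2.12 ± 0.32 in input (adjusted p = 8.19e-05), higher in 3 of 3 lines in both. Without 22Rv1 the input call was lost (adjusted p = 0.471). MBOAT2, a lysophospholipid acyltransferase, went from 1.83 to 8.76, from 4.46 to 32.7 and from 3.61 to 13.1 RPM (2.37 ± 0.30, adjusted p = 3.16e-07). ZBTB16, a transcriptional repressor, went from 1.14 to 29.3, from 105 to 153 and from 6.07 to 27.2 RPM (1.85 ± 0.32, adjusted p = 0.000181). The DHT libraries were the higher ones in every line for these 3 genes. Each of the 3 introns has annotated coding sequence inside, whose part in these levels was not tested.

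Over the 54 androgen-induced genes listed, 24 had a long intron, of which 12 were higher after DHT in PSF-RIP and 0 lower, with a median of 1.12. In the inputs 4 were higher (ZBTB16, FKBP5, TTN and MBOAT2), 0 lower, with a median of 1.00; without LTAD the input calls of ZBTB16, TTN and MBOAT2 were lost (adjusted p = 0.567, 0.998 and 0.34), and without 22Rv1 also that of MBOAT2 (0.329). The list is built from known androgen targets and was written with earlier results of these data known, so its direction is not independent evidence. Besides the 3 above, C1orf21 (1.96 ± 0.28, adjusted p = 5.55e-06), SPOCK1, a proteoglycan (1.81 ± 0.29, adjusted p = 4.26e-05), INPP4B, an inositol phosphatase (1.31 ± 0.30, adjusted p = 0.00972), and HERC3 (1.22 ± 0.32, adjusted p = 0.0353) were higher in 3 of 3 lines. PMEPA1, PLPP1, AFF3 and ABCC4 were called while 22Rv1 gave log2 values of -0.07, -0.24, -0.27 and -0.08. The TTN intron had reads mainly after DHT, at 84.4 RPM in LTAD and 9.30 RPM in LNCaP PSF-RIP, and 0 in both 22Rv1 PSF-RIP libraries. It reached the read minimum through the group where it was higher, so its calls are descriptions and not independent support. The remaining 12 did not pass the test; NEDD4L, a ubiquitin ligase, had 0.57 ± 0.23 and TPD52 0.62 ± 0.20.

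**Figure D4:**
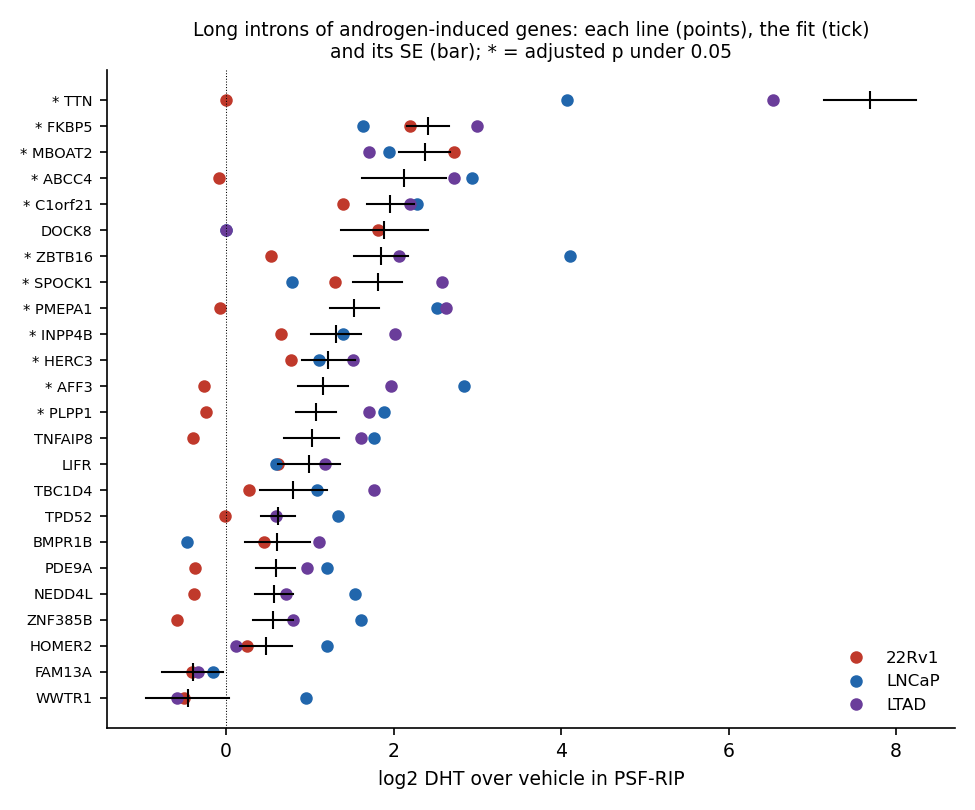
Log2 difference of DHT from vehicle in PSF-RIP for the long introns of 24 androgen-induced host genes, with 1 point per line and the fitted value with its SE; asterisks mark an adjusted p under 0.05. The 12 marked introns are all above 0 in the fit, and PMEPA1, PLPP1, AFF3 and ABCC4 have 22Rv1 points just below 0.

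Outside the list, THSD7A, a thrombospondin-type receptor (chr7:11676589-11871382, the first intron), went from 0.686 to 4.38 RPM in LNCaP, from 1.89 to 18.1 in 22Rv1 and from 2.13 to 19 in LTAD PSF-RIP (3.11 ± 0.34, adjusted p = 1.01e-08). The THSD7A intron reached the read minimum mainly through the DHT libraries, the group where it was higher. Its p-value is therefore a description and not independent support. KCNMA1, a calcium-activated potassium channel, rose by 1.43 ± 0.21 (adjusted p = 1.78e-05) and NFIB, a transcription factor, by 1.09 ± 0.20 (adjusted p = 0.000451). The intron of UGT1A6, a glucuronosyltransferase, also rose (2.43 ± 0.46, adjusted p = 0.001); introns of neighbouring UGT1A genes overlap it and share its reads, so they count as 1 locus. This call was lost by DESeq2 (adjusted p = 0.0781) and without 22Rv1 (0.806). Lower after DHT were C5orf66, which went from 328 to 104, from 37.7 to 14.3 and from 144 to 20.5 RPM (-1.97 ± 0.22, adjusted p = 1.84e-08), and SYTL2, an effector of vesicle transport (-1.52 ± 0.25, adjusted p = 9.55e-05, and 0.0841 without LTAD). NEGR1, a neuronal adhesion protein, was also lower (-1.90 ± 0.42, adjusted p = 0.00669), with most of its reads in 22Rv1, but not by DESeq2 (adjusted p = 0.485), without 22Rv1 (0.585) or without LTAD (0.123). Of 26 androgen-repressed genes, 7 had a long intron, and SYTL2 was the 1 called, with a median of -0.78.

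PSF-CLIP peaks in LNCaP were sparser in long introns than in shorter ones. Counting peak centres on either strand, because the lists carry no strand, long introns held 4498 and 683 peaks in the vehicle lists and 4345 and 2138 in the DHT lists. That is 1.51 and 0.230 peaks per 100 kb with vehicle and 1.46 and 0.719 with DHT over 297307.3 kb of merged intron. Introns of 10 to 50 kb held 2.54 and 0.322 with vehicle and 2.42 and 1.08 with DHT, and introns under 10 kb 4.28 and 0.470, and 3.96 and 1.64. Long introns were lowest in each of the 4 lists. The same read minimum asks for a higher read density of shorter introns, whose median was 30.1 reads per kb, against 3.13 in long introns. The part of RNA level in these peak densities was not tested, so they do not show weaker binding of PSF in long introns. The 2 lists of a treatment differed by more than the treatments did, and 2 against 2 lists cannot reach p below 1 in 3 (exact permutation test, two-sided), so no test of DHT is given. Of the 4498 peaks of the first vehicle list, 40.9% were in that list alone and 169 (3.76%) overlapped a peak in all 4 lists, a share limited by the 683 peaks of the second vehicle list, of which 26.2% were in all 4.

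Within long introns the first part held more peaks than the last in each list. The first 10% of intron length held 15.4% and 12.2% of peaks in the vehicle lists and 14.7% and 15.2% in the DHT lists, and the last 10% held 4.84%, 7.77%, 4.96% and 5.91%. An even spread would put equal shares at both ends. The course between them was not steady in the second, smaller vehicle list, where the seventh of the 10 parts held 11.9%. Windows of 200 bases on the peaks had a median purine share of 62.5% and 57.5% (vehicle) and 62.5% and 60.5% (DHT) on the intron strand, against 49.0% over 292696 windows tiled along the introns. GAGA was found in 85.0%, 84.1%, 84.9% and 85.7% of peak windows in that order, against 59.7% of tiled windows, and TCTC in 27.8%, 48.5%, 26.9% and 44.4%, against 60.4%. Because the strand used here is that of the intron and not of the peak, windows from antisense RNA would be read in the wrong orientation. The 3085 windows of peaks found in 3 or 4 lists are drawn from these same lists. Overlapping peaks of different lists count separately among them, so they are not 3085 separate sites. Their median purine share was 63.5% and GAGA was in 85.5%. The SNTG2 and SCHLAP1 windows printed above are examples at the purine-rich end.

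**Figure D5:**
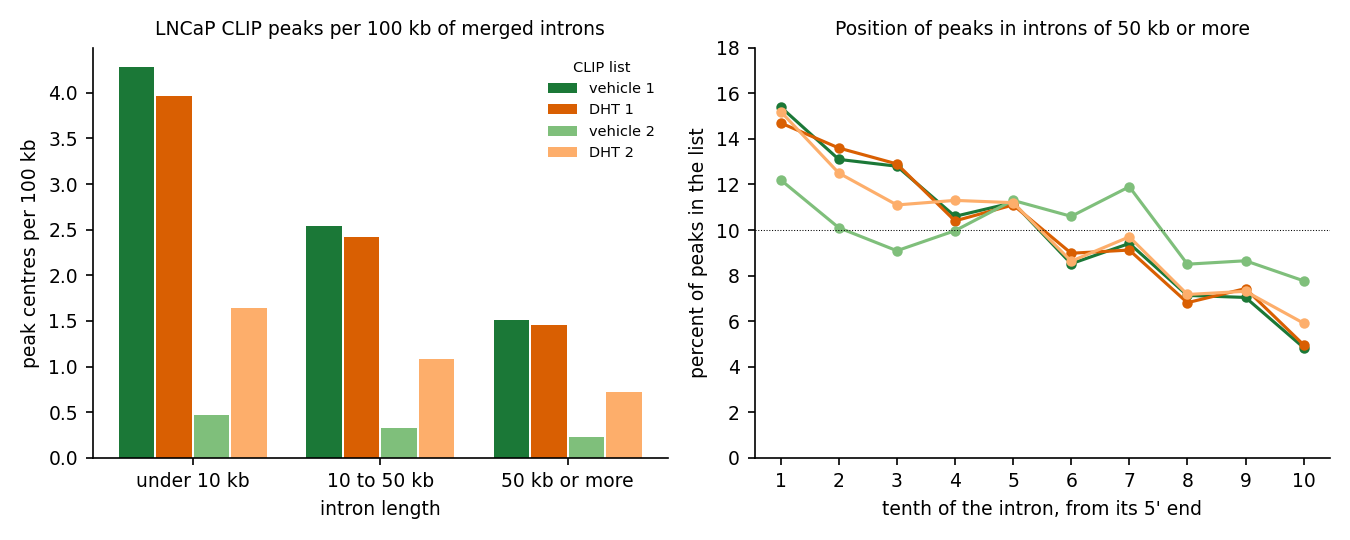
PSF-CLIP peaks per 100 kb of intron by length class (left) and share of peaks along the intron, in 10 equal parts from the 5′ to the 3′ end (right), with 1 series per LNCaP list. Long introns have the lowest density in each list, from 0.230 to 1.51 peaks per 100 kb, and in each list the first of the 10 parts holds a larger share than the last.

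The long introns with peaks were the ones with more RNA in LNCaP. No list had a peak in 1014 of them, 754 had a peak in 1 list, 705 in 2, 792 in 3 and 346 in all 4. The median LNCaP vehicle input level rose over these groups from 1.66 to 3.39, 5.72, 9.23 and 11.3 RPM per 100 kb. The median log2 ratio of PSF-RIP to input in LNCaP vehicle went from -0.22 to -0.58, -0.71, -0.84 and -0.95. In LNCaP DHT it went from 0.00 to -0.08, -0.19, -0.24 and -0.24, a smaller span, and in 22Rv1 vehicle from 0.82 to 1.02. Introns with more CLIP lists thus had the lower LNCaP ratios, mainly with vehicle, where the PSF-RIP share of long introns was lowest. Input level moved along, and its part was not tested. The prior added to each count pulls the ratio toward 0 where levels are low, as in the introns without peaks. The densest was NETO1, with 0.481 peaks per kb summed over the 4 lists, and then PPFIA2, a liprin of synapses, with 0.459, CCNY, a cyclin, with 0.452, GULP1, an engulfment adaptor, with 0.441, PLPP1, a lipid phosphatase, with 0.423, and NCAM2 with 0.408. NETO1 and NCAM2 were among the highly covered LNCaP introns, at 226 and 531 RPM in the vehicle input, while CCNY was at 3.59 RPM.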

How the data were processed

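Each RIP and input file holds whole-number read counts per exon set, intron, antisense strand and intergenic interval of RefSeq genes on hg19, and per the file headers the authors did not normalize them. TopHat2 2.1.0, Bowtie2 2.2.6 and Bowtie are named, without roles, in the submitters' processing notes. The 4 deposited LNCaP peak lists hold each peak's coordinates and the authors' score, which was used only to rank and filter peaks within a list. The peak caller is not given in the sources used here. The lists carry no strand, so the planned counting on the intron strand was replaced by counting on either strand. Introns at one position and strand were kept once.

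All introns with 50 or more reads were fitted together in edgeR 4.0.16 (R 4.3.3, limma 3.58.1) with its quasi-likelihood test, library sizes from TMM over sense exon counts, and Benjamini-Hochberg adjustment at 0.05. Every adjusted p comes from this test unless DESeq2 1.42.0 is named. DESeq2 scaled the libraries by the intron counts themselves, so its results differ in scaling as well as in tool. The model for PSF-RIP against input had additive line and treatment effects. A second model, with interactions of line and of treatment with assay, gave all other comparisons. Per-library log2 values carry a prior count of 2 on average, scaled to library size. Fits were also run on simulated data. These had no line differences and the same spread for all introns, so the outcome does not carry over to these libraries. Exons, small RNA copies and the first introns come from GENCODE v44 lifted to GRCh37, and sequence from the hg19 genome. bedtools 2.31.1 and pysam 0.24.0 were used for overlaps and sequence.

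The members and the 9 gene lists were chosen with earlier results of these data known. By the naming rule, 1 intron per host gene was named: the 10 highest and the 10 lowest of each comparison past the threshold that had 100 or more reads and 1 sign across pairs, lines or treatments, the 10 with the most reads, the 5 longest, 2 per gene list, and the 10 densest in CLIP peaks. Of these the text describes a part. Results that need a gene withheld from the text are not reported here. Further introns of the gene lists, those of the added comparison of ratios and those with small RNA copies were named outside the rule, after their values were seen. Alternatives were another scaling, DESeq2, other filters, 1 intron per cluster, introns without exons, a replicate block and leaving out each line or library. A second LNCaP set of 4 samples has labels that contradict each other, and its 12 columns could not be matched and were not used here. The CLIP inputs were not analysed here.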

Additional observations from a re-analysis of the deposited data

Results flagged for a closer look

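The ratio of PSF-RIP to input differed between 22Rv1 and LNCaP for 118 long introns by edgeR's quasi-likelihood test of that difference (117 higher in 22Rv1 and 1 lower). MIR99AHG was one of them: its difference was 1.65 ± 0.35 (adjusted p = 0.0139), with log2 ratios of 1.23 in 22Rv1 vehicle, 0.26 in 22Rv1 DHT, -1.16 in LNCaP vehicle and -0.52 in LNCaP DHT, while its intron level was lower in 22Rv1 in both assays.

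In 5 of the 46 named introns examined, 1 of the 6 pairs stood apart from the others by a Dixon test at 95%, which chance alone brings about in 1 of 20 such groups. MBD5, a methyl-CpG-binding domain protein, was at 3.65 in 22Rv1 vehicle, where the input held 0.661 RPM and PSF-RIP 15.1 RPM. PDE4D was at -1.47 in LNCaP vehicle, with 35.9 RPM in input and 12.6 RPM in PSF-RIP. ASIC2, an acid-sensing ion channel, was at -1.24 in LTAD vehicle (34.2 and 14.1 RPM), and NFIB at 1.46 in LTAD DHT (23.0 and 64.1 RPM). IGF2BP2, an RNA-binding protein of messenger RNAs, was at -1.69 in LTAD vehicle, where the input held 1.32 RPM and PSF-RIP 0, so its value rests on few reads.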

How the results depend on the processing

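Calls moved as follows from the values in the report. For PSF-RIP against input (454 calls), DESeq2 gave 259 (117 higher, 142 lower), introns with no annotated exon inside 20 and those with no coding exon inside 172, and leaving out a line or pair 196 to 1007. The median log2 difference of 0.33 ranged from -0.14 to 0.63, reversing to -0.14 without 22Rv1. A replicate block on the line and treatment pairs gave 504 calls (362 higher, 142 lower), within 1.5 times of the main count. For DHT in PSF-RIP (91), 1 intron per cluster gave 60, DESeq2 28, edgeR's expression filter 21, no exon 3, no coding exon 33, and leaving out a line 14 to 204. For DHT in input (12) the values were 5 by DESeq2, 0 with the expression filter, 0 with no exon, 3 with no coding exon, 22 with no read minimum and 1 to 17 without a line.

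For 22Rv1 against LNCaP in PSF-RIP (2796), the expression filter gave 1473, no exon 364, no coding exon 1385, and leaving out a library pair 1986 to 2803. In input (993), 1 per cluster gave 654, DESeq2 600, the filter 476, no exon 85, no coding exon 457, and leave-outs 533 to 702. For LTAD against LNCaP in PSF-RIP (402), 1 per cluster gave 260, DESeq2 213, the filter 258, no exon 23, no coding exon 171, intron scaling 671, and leave-outs 126 to 645. In input (130), 1 per cluster gave 77, DESeq2 62 (38 higher, 24 lower), no exon 13, no coding exon 71, intron scaling 84, and leave-outs 25 to 111. Settings that keep fewer introns also test fewer; for the others the cause was not tested.

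The mean share of intronic reads in long introns of PSF-RIP (14.2%) was 7.52% from 100 kb, 20.9% from 30 kb and 5.34% without exons inside. In input (14.5%) it was 7.95%, 21.8% and 4.52%, and 16.9% with 1 intron per cluster, 17.8% with 100 or more reads and 16.3% with 50 or more, the last added later. CLIP peaks per kb (0.0098 over the 4 lists) fell to 0.00315 at a score of 100 or more and ranged from 0.00803 to 0.0123 without a list. Among values of named introns under alternatives, called or not, 659 for PSF-RIP against input stayed on their side of the threshold, 74 lost a call, 11 gained one and 0 reversed. For 22Rv1 against LNCaP 197 stayed and 3 lost it in PSF-RIP, and 196 and 6 in input. For LTAD against LNCaP it was 184 and 13, and 140 and 65 in input, and for DHT 120 and 54, and 56 and 26 in input. Shallow inputs limit every ratio for introns with few reads.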
